A study of Mus musculus with 5 samples.

Results

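Small nucleolar RNAs (snoRNAs) were described in peritoneal macrophages, the resident phagocytes of the mouse abdominal cavity, with and without Nrp1, the gene of the co-receptor neuropilin 1. The members were all genes whose symbol begins with Snord or Snora followed by a digit, without regard to their values. They numbered 113 of 38509 gene symbols, of which 75 were box C/D (Snord) and 38 were H/ACA (Snora) snoRNAs. The knockout group (2 libraries) came from LysMCre-Nrp1fl/fl mice with the genotype Nrp1-/-, in which Cre recombinase expressed from the lysozyme M locus recombines floxed Nrp1 in myeloid cells. The wild-type group (3 libraries) came from mice with the strain label C7/BL6, whose labels name neither Cre nor floxed alleles, so loss of Nrp1 and the presence of Cre cannot be told apart. Cells of both groups were kept in F12 DMEM with serum, RNA from them was selected for poly(A) tails, and sequencing was on an Ion Torrent instrument. The age, sex and number of mice were not given in the sources used here, and p-values therefore measure only the spread between these libraries.

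SnoRNAs are short nuclear RNAs that direct the chemical modification of ribosomal RNA. Box C/D snoRNAs pair with a target and place a 2′-O-methyl group through the methyltransferase fibrillarin, and H/ACA snoRNAs place pseudouridine through dyskerin. A few members of both classes act in the cleavage of the ribosomal RNA precursor instead. In mammals most are cut out of the introns of host genes, many of which encode ribosomal proteins, and the mature RNA has no poly(A) tail. What the selection for poly(A) tails did to the values below was not tested.

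Sequences are shown for the snoRNAs on which the results turn, from the GENCODE vM21 transcripts on GRCm38 (the same assembly as mm10), written 5′ to 3′ with U as T. In the box C/D snoRNAs the capitals mark TGATG, the core of box C, and CTGA, box D. The first set consists of the 4 snoRNAs in introns of the ribosomal protein gene Rpl13a, on the minus strand of chromosome 7, and Snord35b, which shares its number with Snord35a.
Snord32a: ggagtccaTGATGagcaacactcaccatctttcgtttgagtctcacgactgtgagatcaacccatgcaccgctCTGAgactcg
Snord33: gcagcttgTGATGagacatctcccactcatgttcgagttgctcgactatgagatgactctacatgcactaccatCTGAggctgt
Snord34: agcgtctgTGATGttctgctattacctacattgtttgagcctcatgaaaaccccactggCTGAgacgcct
Snord35a: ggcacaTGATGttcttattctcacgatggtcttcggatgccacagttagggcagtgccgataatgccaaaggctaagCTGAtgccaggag
Snord35b: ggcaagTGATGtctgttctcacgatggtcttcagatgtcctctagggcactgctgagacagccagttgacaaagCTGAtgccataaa

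Snord49a, from an intron of 2410006H16Rik on chromosome 11, is another box C/D snoRNA whose libraries separated by group.
Snord49a: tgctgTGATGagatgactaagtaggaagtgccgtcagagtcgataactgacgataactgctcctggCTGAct

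The last set holds H/ACA snoRNAs, with the ACA box near the 3′ end in capitals. Snora28 and Snora73b had values in all 5 libraries, and Snora31 and Snora75 separated by group.
Snora28: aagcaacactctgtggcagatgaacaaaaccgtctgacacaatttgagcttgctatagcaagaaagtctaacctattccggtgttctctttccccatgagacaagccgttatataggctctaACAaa
Snora73b: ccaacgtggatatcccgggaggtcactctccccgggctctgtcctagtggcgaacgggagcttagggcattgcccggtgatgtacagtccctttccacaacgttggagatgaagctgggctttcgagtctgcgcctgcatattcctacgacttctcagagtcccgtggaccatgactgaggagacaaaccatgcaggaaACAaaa
Snora31: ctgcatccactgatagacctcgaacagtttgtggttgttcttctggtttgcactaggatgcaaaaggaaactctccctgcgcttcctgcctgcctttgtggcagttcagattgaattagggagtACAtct
Snora75: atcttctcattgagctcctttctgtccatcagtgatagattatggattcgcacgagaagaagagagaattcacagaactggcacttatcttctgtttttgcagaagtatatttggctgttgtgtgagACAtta

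The class names went with the sequences. TGATG lay within the first 20 bases of 64 of 75 box C/D members (85.3%) and of 0 of 38 H/ACA members. It lay there in 22.6% of 1392 other annotated snoRNAs and in 1.79% of 3585 small nuclear RNAs and microRNA precursors. CTGA lay within the last 20 bases of 74 box C/D members (98.7%) and of 4 H/ACA members (10.5%), against 32.6% of the other snoRNAs and 6.89% of the small nuclear RNAs and microRNA precursors. ACA lay within the last 10 bases of 36 H/ACA members (94.7%) and 8 box C/D members (10.7%), against 48.0% of the other snoRNAs and 14.7% of the small nuclear RNAs and microRNA precursors. These searches were on the RNA strand. TGATG and CTGA share the letters TGA, but their windows do not overlap in any member. No TGATG was found in that window of Snord22.

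Values are FPKM, read fragments scaled to transcript length and to the reads mapped in the library, as the authors calculated them with Cufflinks. Summed over genes, a library held between 539432 and 629435 FPKM. Nrp1 had 7.63 and 7.70 FPKM in the knockout libraries and 24.3, 19.0 and 11.5 FPKM in wild-type libraries 1, 2 and 3, with no overlap. Its limma adjusted p over all genes was 0.926, and which exons the deletion removes is not given in the sources used here. The 8 macrophage markers summed to 8496 and 8675 FPKM in knockout libraries and to 5762, 6017 and 6363 FPKM in wild-type libraries 1, 2 and 3. Among them Lyz1 had 4680 and 5154 FPKM in knockout libraries and 2361, 2071 and 832 FPKM in wild-type libraries. Lyz2, the lysozyme gene of the locus that carries Cre, had 53.0 and 64.3 FPKM in knockout libraries and was listed at 0 in all 3 wild-type libraries. The higher marker sum in the knockout libraries came mainly from Lyz1. For Emr1, Csf1r, Cd14 and Cd68 the groups overlapped, with log2 fold changes of -0.01, -0.06, -0.48 and -0.24. They also overlapped for Itgam and Gata6, with log2 fold changes of 0.41 and 0.11. Wild-type library 3 stood apart: it had the highest sum and the fewest genes at 1 FPKM or more, 11026 against 11962 to 12035 in the others. The 3 mast cell markers summed to 10.8 and 5.02 FPKM in knockout libraries and to 5.16, 6.52 and 29.7 FPKM in wild-type libraries 1, 2 and 3. The 5 mesothelium and fibroblast markers summed to 12.7 and 8.96 FPKM in knockout libraries and to 22.04, 22.8 and 7.10 FPKM in wild-type libraries. The part of the cell mixture in the results below was not tested.

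Most snoRNAs were listed at 0 in any given library. Of the 75 box C/D snoRNAs, 57 and 58 were listed at exactly 0 in knockout libraries 1 and 2, and 53, 58 and 66 in wild-type libraries 1, 2 and 3. Of the 38 H/ACA snoRNAs, 24 and 20 were listed at 0 in the knockout libraries and 18, 23 and 29 in the wild-type libraries in the same order. Wild-type library 3 had the most zeros in both classes, and both knockout libraries lay within the wild-type range in both classes. At 0 in all 5 libraries were 36 box C/D and 10 H/ACA snoRNAs. An exact 0 in such a table can be a failed estimate, so it is given here as a listed value and not as absence of the RNA.

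**Figure D1:**
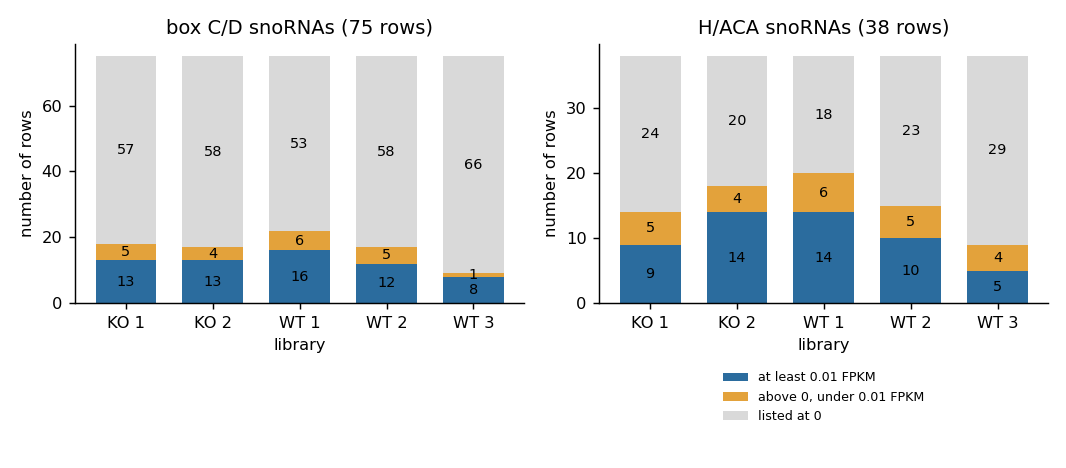
Number of snoRNA rows per library (KO, knockout; WT, wild-type) that were at 0.01 FPKM or more (blue), above 0 but under 0.01 FPKM (orange) or listed at 0 (grey), with box C/D snoRNAs on the left and H/ACA snoRNAs on the right. Wild-type library 3 has the fewest rows at 0.01 FPKM or more in both classes, 8 and 5.

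Beside the 406 exact zeros, 45 of the 565 values lay above 0 but under 0.01 FPKM. Of these, 37 were under 1e-06 FPKM, the highest was 0.00296 FPKM, and the next value above that limit was 0.410 FPKM. They fell in 21 snoRNAs. Of these 21, 17 (81.0%) overlapped an exon of an annotated transcript of their host gene, usually one that retains the intron, against 18 of the 46 snoRNAs at 0 in every library (39.1%) and 18 of the remaining 46. Counting only values of 0.01 FPKM or more, 22 and 27 snoRNAs were present in knockout libraries 1 and 2, and 30, 22 and 13 in wild-type libraries 1, 2 and 3. This was 11.5% to 26.5% of the members per library, against 1.07% to 3.05% of 1310 other annotated snoRNA genes in the table, 10.5% to 36.8% of 38 small Cajal body RNA genes and 2.64% to 3.62% of 1326 microRNA genes.

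The same snoRNAs were seldom present in several libraries. At 0.01 FPKM or more, 57 were present in no library, 26 in 1, 12 in 2, 10 in 3, 6 in 4 and 2 in all 5. Of the 26 seen once, 5 and 10 came from knockout libraries 1 and 2, and 6, 3 and 2 from wild-type libraries 1, 2 and 3. Present in knockout libraries alone were 15 snoRNAs, in wild-type libraries alone 15, and in both groups 26. None of the first 15 was present in both knockout libraries, and 2 of the second 15, Snord35a and Snora62, were present in all 3 wild-type libraries.

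**Figure D2:**
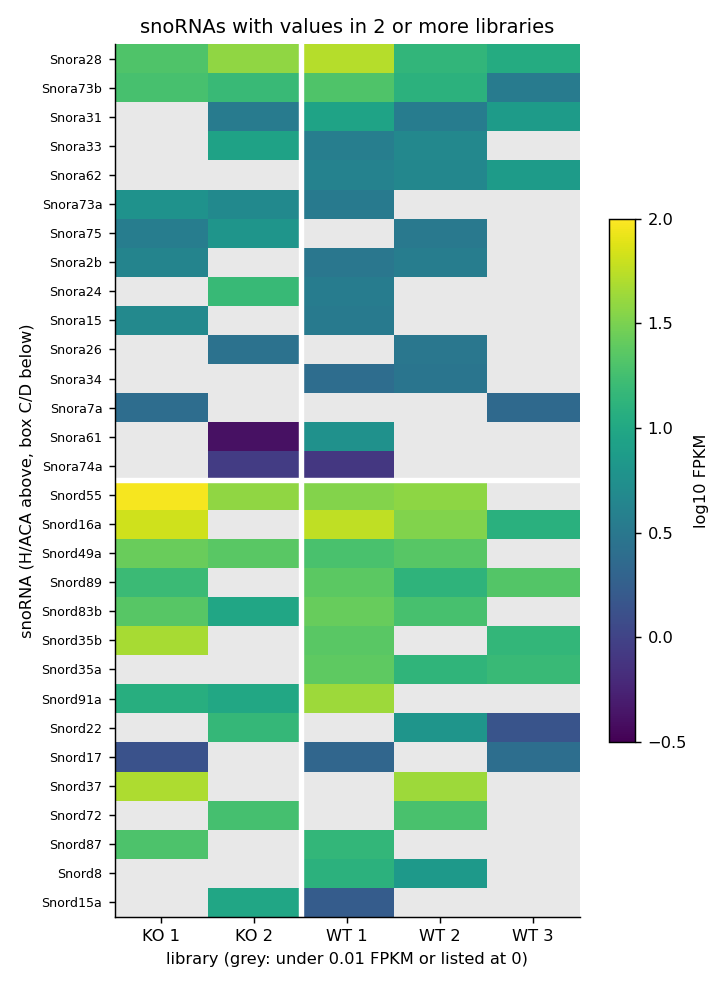
FPKM on a log10 colour scale for the 30 snoRNAs with values of at least 0.01 FPKM in 2 or more libraries; grey cells are under 0.01 FPKM or listed at 0, H/ACA snoRNAs are above the white line and box C/D snoRNAs below it, and knockout libraries are left of the vertical line. Snora28 and Snora73b have values in all 5 libraries, and Snord35a and Snora62 have values in the wild-type libraries alone.

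The snoRNAs together had 543 and 353 FPKM in the knockout libraries and 471, 330 and 129 FPKM in wild-type libraries 1, 2 and 3. Box C/D snoRNAs made up 476 and 239 FPKM of this in the knockout libraries and 352, 274 and 97.4 FPKM in wild-type libraries. H/ACA snoRNAs made up 66.8 and 114 FPKM in the knockout libraries and 118, 55.3 and 31.6 FPKM in wild-type libraries. In each of these 3 sums the groups overlapped, and wild-type library 3 was the lowest. In these bulk samples fewer cells of a type and less RNA per cell cannot be told apart.

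Knockout was compared with wild-type across all 12228 genes with at least 1 FPKM in at least 2 libraries, by limma on log2(FPKM + 1) with Benjamini-Hochberg adjustment. Of the 113 snoRNAs, 28 met this filter, 15 box C/D and 13 H/ACA. None was called higher at an adjusted p under 0.05, against 5 of all tested genes (0.0409%), and 1 was called lower, Snord35a, against 2 of all tested genes (0.0164%), where 7 genes (0.0572%) were called in either direction. At an unadjusted p under 0.05, 2 snoRNAs were higher and 3 lower, against 1.82% of all tested genes in either direction. The knockout values lay above all wild-type values for 4 snoRNAs and below them for 3, while 13.9% and 6.96% of all tested genes did so, and 21 of the 28 overlapped. The median log2 fold change of the 28 was 0.50, that of all tested genes 0.11, and 18 of the 28 were positive. It was 0.68 for box C/D and 0.34 for H/ACA snoRNAs, and without wild-type library 3 the median was 0.04 over tested snoRNAs and 0.02 over all tested genes. With library weights the snoRNA median was -0.39. A snoRNA passes the filter through the group in which it has values, so these counts, calls and medians describe only the 28 that passed. Snord35a met the filter through the wild-type libraries alone, and without a filter 0 snoRNAs were called.

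Snord35a, which in humans is assigned to a 2′-O-methylation of 28S ribosomal RNA, lies at chr7:45126346-45126435 in an intron of Rpl13a. It was listed at 0 in both knockout libraries and had 24.1, 13.8 and 15.6 FPKM in wild-type libraries 1, 2 and 3, so the groups did not overlap. Its limma adjusted p was 0.0115, which ranged over the alternatives from 0.000146 to 0.145. The call was lost when either knockout library was left out (adjusted p = 0.136 without the first and 0.145 without the second), and when all genes were tested without a filter (adjusted p = 0.107). Without wild-type library 3 its adjusted p was 0.0166. Snord35a met the filter through the wild-type libraries alone, so nothing is read from this call or its adjusted p.

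Snord35b is assigned in humans to the same methylation as Snord35a. The longest stretch that the 2 sequences share is 17 bases, ttctcacgatggtcttc, and no 25-base stretch of Snord35a occurs in Snord35b. Snord35b had 46.8 and 0 FPKM in the knockout libraries and 22.9, 0 and 14.4 FPKM in wild-type libraries. Its groups overlapped, with a log2 fold change of -0.05 ± 1.85 (SE).

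SnoRNAs of Rpl13a have been studied in mouse and hamster cells for their part in the response to lipotoxic stress. Apart from Snord35a, each snoRNA of this host had a value in a single library. Snord32a, at chr7:45127382-45127464, had 25.6 FPKM in wild-type library 1. Snord33, at chr7:45126864-45126947, had 30.6 FPKM in knockout library 1. Snord34, at chr7:45126601-45126670, had 40.2 FPKM in wild-type library 2. In the other libraries each was at 0 or under 0.01 FPKM, so these 3 neighbours of Snord35a did not separate the groups. The host Rpl13a had 521 and 519 FPKM in the knockout libraries and 630, 530 and 855 FPKM in wild-type libraries, and the value of its row in wild-type library 3 is the one put back from another row. Its highest value was in wild-type library 3, where Snord35a alone of the 4 snoRNAs had a value.

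**Figure D3:**
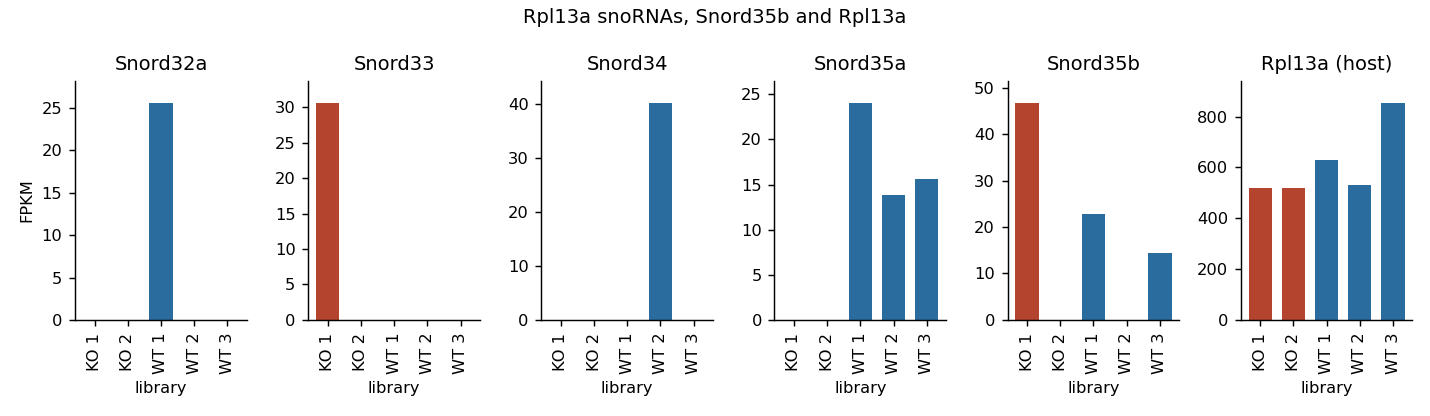
FPKM per library of the 4 snoRNAs in Rpl13a introns, of Snord35b, which has another host, and of Rpl13a itself, with knockout libraries in red and wild-type libraries in blue; each panel has its own linear scale from 0. Snord35a has bars in the 3 wild-type libraries alone, while Snord32a, Snord33 and Snord34 each have a bar in 1 library.

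The box C/D snoRNAs with the highest mean FPKM were Snord55, Snord16a, Snord37 and Snord49a. Snord55, assigned in humans to a 28S methylation, had 93.0 and 38.4 FPKM in the knockout libraries and 34.7, 37.7 and 0 FPKM in wild-type libraries. Its groups did not overlap, but knockout library 2 and wild-type library 2 differed by less than 1 FPKM, and its log2 fold change was 2.45 ± 1.53 (SE; adjusted p = 0.926). Snord49a, also assigned to 28S ribosomal RNA, had 26.6 and 23.1 FPKM in the knockout libraries and 19.2, 22.5 and 0 FPKM in wild-type libraries, with a log2 fold change of 1.73 ± 1.28 (SE; adjusted p = 0.926). For both, the zero was in wild-type library 3, without which the log2 fold changes were 0.71 for Snord55 and 0.25 for Snord49a. Snord49b, from the same host as Snord49a, had 21.1 FPKM in wild-type library 1 and was listed at 0 elsewhere, and Snord65, the third snoRNA of that host, had 65.2 FPKM in knockout library 2 and was listed at 0 elsewhere.

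Snord16a, which lies in Rpl4 and is assigned in humans to 18S ribosomal RNA, had 65.5 and 0 FPKM in the knockout libraries and 57.3, 33.6 and 12.1 FPKM in wild-type libraries. The knockout pair enclosed all wild-type values, so its log2 fold change of -1.87 ± 1.60 (SE) rested on the second knockout library, without which it was 1.16. Snord37, from an intron of Eef2, had 49.6 and 0 FPKM in the knockout libraries and 0, 43.5 and 0 FPKM in wild-type libraries. Snord89 had 15.9 and 0 FPKM in the knockout libraries and 23.3, 13.3 and 21.7 FPKM in wild-type libraries. Snord83b, from an intron of Rpl3, had 22.5 and 9.60 FPKM in the knockout libraries and 26.2, 18.6 and 0 FPKM in wild-type libraries. The groups of all 4 overlapped.

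Snord8, from an intron of Chd8, was listed at 0 in both knockout libraries and had 12.9, 7.0 and 0 FPKM in wild-type libraries. Snord91a, from an intron of Tsr1, had 11.6 and 9.92 FPKM in the knockout libraries and 42.8, 0 and 0 FPKM in wild-type libraries. Neither passed the test, with an adjusted p of 0.926 each, and both were named after their values were seen because some alternatives called them. Snord8 was called lower without wild-type library 3, which was at 0 (adjusted p = 0.0478), and with library weights (adjusted p = 0.0199). Snord91a was called higher without wild-type library 1, its highest (adjusted p = 0.0246). In each of these fits a whole group was listed at 0 and the snoRNA met the filter through the other group alone, so nothing is read from the calls.

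Among the H/ACA snoRNAs, Snora28 and Snora73b were present throughout. Snora28, assigned in humans to a pseudouridine of 18S ribosomal RNA, lies at chr12:111540941-111541067 in Eif5 and overlaps an exon of at least 1 Eif5 transcript. It had 20.6 and 38.4 FPKM in the knockout libraries and 52.2, 14.1 and 10.9 FPKM in wild-type libraries, which enclosed the knockout values. Snora73b, a copy of U17, which acts in the cleavage that yields 18S ribosomal RNA, had 18.5 and 15.8 FPKM in the knockout libraries and 20.5, 12.7 and 3.47 FPKM in wild-type libraries. Their log2 fold changes were 0.45 ± 0.64 and 0.73 ± 0.61 (SE), and the groups overlapped for both. With library weights, which let limma give libraries unequal weight, they were -0.36 and -0.0123, and without wild-type library 3 they were 0.04 and 0.08.

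Snora73a lies beside Snora73b in introns of Rcc1. They share a 56-base stretch, and each has 55.2% of its 25-base stretches in the other. Snora73a also has 74.6% of its 25-base stretches in transcripts of Snhg3. Reads could thus be split between these genes, and the values of both Snora73a and Snora73b are uncertain. Snora73a had 5.96 and 4.81 FPKM in the knockout libraries and 3.40, 0 and 0 FPKM in wild-type libraries. Snora75, from Ncl and assigned in humans to 18S ribosomal RNA, had 3.64 and 6.30 FPKM in the knockout libraries and 0, 3.24 and 0 FPKM in wild-type libraries. The knockout values lay above all wild-type values for both, with log2 fold changes of 1.96 ± 0.65 and 1.85 ± 0.65 (SE; unadjusted p = 0.0197 and 0.0254), and neither passed adjustment over all genes (adjusted p = 0.926 each).

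Snora62 was listed at 0 in both knockout libraries and had 4.10, 4.54 and 7.48 FPKM in wild-type libraries. It is assigned in humans to pseudouridines of 28S ribosomal RNA. Its adjusted p was 0.0556, just short of the threshold, and ranged from 0.000708 to 1.00 over the alternatives. It passed without wild-type library 3 (adjusted p = 0.0166) and with a pseudocount of 0.1 (adjusted p = 0.0267). With libraries rescaled to equal sums (adjusted p = 0.0435) and with library weights (adjusted p = 0.000708) it passed too. It did not pass without a filter (adjusted p = 0.328) or with quantile normalization (adjusted p = 0.193). Without wild-type library 1 (adjusted p = 0.0698) or wild-type library 2 (adjusted p = 0.0941) it did not pass either. Nor did it with wild-type library 3 in the order as deposited (adjusted p = 0.181) or with median-of-ratios scaling (adjusted p = 0.172). Snora62 met the filter through the wild-type libraries alone, so nothing is read from these calls. Snora31, from an intron of Tpt1 and also assigned to ribosomal RNA, had 0 and 3.43 FPKM in the knockout libraries and 8.98, 3.53 and 7.49 FPKM in wild-type libraries. Its groups did not overlap, but knockout library 2 and wild-type library 2 were nearly level, and its log2 fold change of -1.79 ± 0.64 (SE; adjusted p = 0.926) was -0.71 without knockout library 1.

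Some further snoRNAs linked to processing of the ribosomal RNA precursor were Snord118, Snord13, the Snord14 copies and Snord22. Of these, all but Snord22 were listed at 0 in at least 4 of the 5 libraries. Snord118 (U8), which has no host gene on its strand, had 3.48 FPKM in wild-type library 3 and was listed at 0 in the other 4 libraries. Snord13 (U13) was listed at 0 in all 5. Of the U14 copies, Snord14a had 12.6 FPKM in knockout library 2 and Snord14e had 5.01 FPKM in wild-type library 1, while Snord14c and Snord14d were listed at 0 throughout. Snord22 (U22), from Snhg1, had 1.2e-05 and 14.6 FPKM in the knockout libraries and 0.00296, 6.38 and 1.40 FPKM in wild-type libraries, and its groups overlapped. Snord116l1 and Snord116l2, from a locus known for expression in neurons, were listed at 0 in all 5 libraries.

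The lowest value a snoRNA took was higher the shorter the snoRNA. FPKM are divided by transcript length, so such a relation is built into the unit and is not read as a trait of snoRNAs. Over the 9 snoRNAs of 60 to under 80 bases the median of each one's lowest value of at least 0.01 FPKM was 34.7 FPKM. It was 14.2 FPKM for the 15 of 80 to under 100 bases, 7.0 FPKM for the 3 of 100 to under 120 bases, 3.24 FPKM for the 20 of 120 to under 140 bases and 2.94 FPKM for the 9 longer ones, up to 238 bases. The shortest snoRNAs were thus either under 0.01 FPKM or at 19.2 FPKM and more. The box C/D snoRNAs present in a library had a median length of 87.0 bases (n = 32), against 75 bases for those under 0.01 FPKM throughout (n = 43). For H/ACA snoRNAs these medians were 133.5 bases (n = 24) and 131.5 bases (n = 14).

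**Figure D4:**
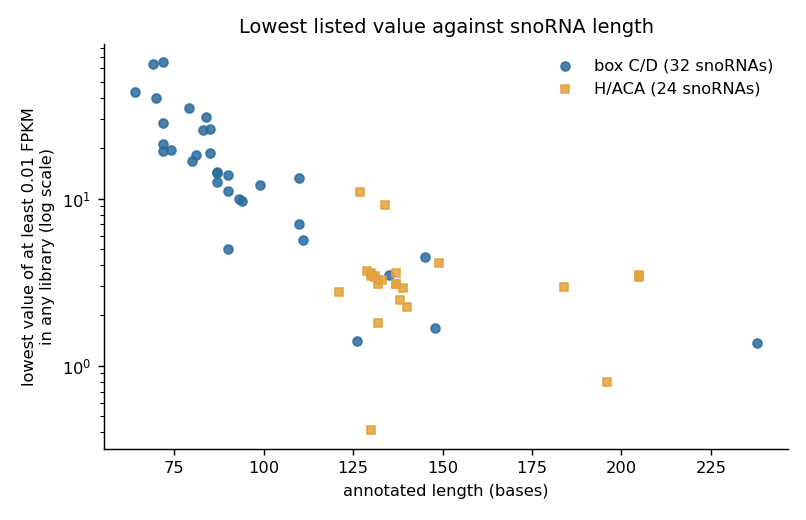
Lowest value of at least 0.01 FPKM in any library (log scale) against annotated length in bases, for the 32 box C/D snoRNAs (circles) and 24 H/ACA snoRNAs (squares) with such a value. The lowest values lie near 34.7 FPKM for the shortest snoRNAs and near 3.24 FPKM at 120 to 140 bases.

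Values of the same snoRNA often lay near 1 or 2 times its lowest. To set the scale, genes of other small RNAs of the commonest annotated length, 107 bases (417 genes), were used, whose values of at least 0.01 FPKM fell mostly on a lowest step, taken as the median of the values under 1.5 times the lowest. The step lay at 7.70 and 6.52 FPKM in knockout libraries 1 and 2 (2 and 6 genes) and at 5.27, 6.22 and 6.89 FPKM in wild-type libraries 1, 2 and 3 (7, 4 and 4 genes). The values on it ran from 5.51 to 6.93 FPKM in knockout library 2, wider than in wild-type library 3, and in knockout library 1 it rests on 2 genes. The next value above it was 2.36 and 2.15 times the step in the knockout libraries and 2.00 and 2.03 times in wild-type libraries 1 and 2, and library 3 had none. After each library was divided by its step, 30 snoRNAs with 2 or more values gave 58 multiples of their own lowest value. Of these, 24 were under 1.2, 11 were between 1.8 and 2.2, and 40 were under 2.5, while 12 were above 4. For 19 of the 30 snoRNAs no library exceeded 2.5 times the lowest.

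On this scale Snord35a stood at 2.06, 1.00 and 1.02 times its lowest value in wild-type libraries 1, 2 and 3. Snord55 stood at 2.05 and 1.00 times its lowest value in the knockout libraries and at 1.12 and 1.03 times in wild-type libraries 1 and 2. Snord49a stood at 1.00 and 1.03 times its lowest value in the knockout libraries and at 1.05 and 1.04 times in wild-type libraries 1 and 2. Snora75 had its lowest value in knockout library 1, below wild-type library 2. On this scale the knockout values of Snord55, Snord49a and Snora75 thus no longer lay above all wild-type values, while those of Snora73a still did. Values over 4 times the lowest occurred in Snora28, Snora73b, Snord16a, Snord22, Snord15a, Snord91a and Snora61, up to 17.7 times in Snora61. That multiple sets 5.87 FPKM in wild-type library 1 against 0.410 FPKM in knockout library 2. The latter was the lowest of all snoRNA values of at least 0.01 FPKM, so the multiple is not a range above a step. The files give no read counts, so the number of reads behind a step is not known. This scale was chosen after the values were seen.

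**Figure D5:**
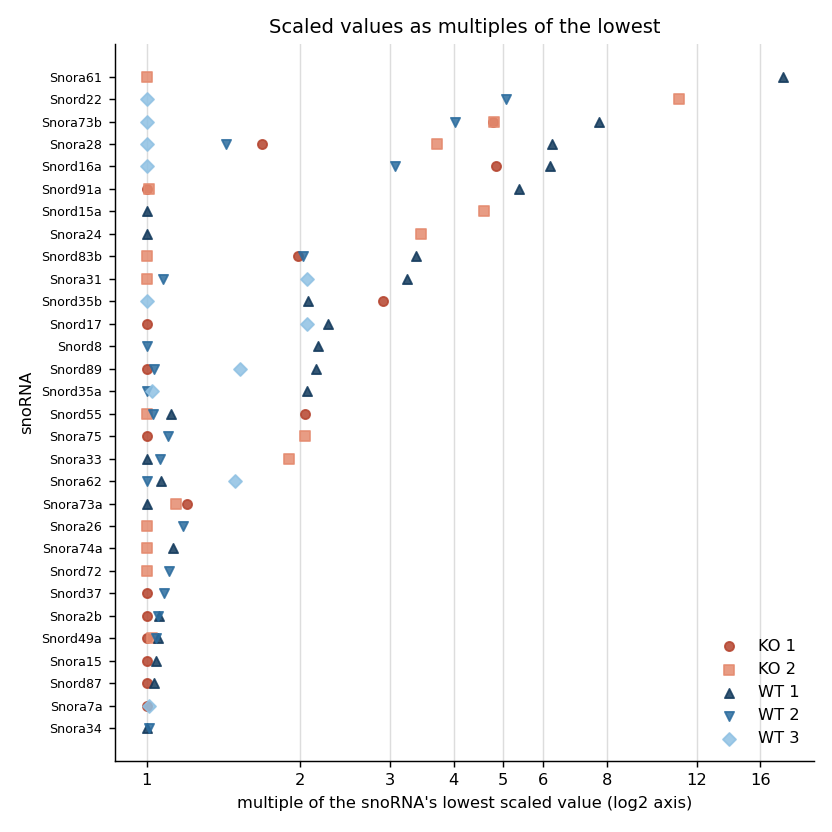
For the 30 snoRNAs with values in 2 or more libraries, each value divided by its library's step and by the snoRNA's own lowest such value (log2 axis), with circles and squares for knockout libraries and triangles and diamonds for wild-type libraries. Most points lie near 1 and 2, and 12 lie above 4.

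A host gene on the same strand was annotated for 108 snoRNAs, in 78 genes, of which 23 ribosomal protein genes held 31 snoRNAs. Of 68 host genes tested, 0 passed the limma test in either direction and 0 had an unadjusted p under 0.05, with 32 positive and 36 negative fold changes and a median log2 fold change of -0.08, against 0.11 for all tested genes. Of all tested genes 0.0572% passed and 1.82% had such a p, so a count of 0 among 68 is near the background. In 22 of the 23 ribosomal protein hosts the highest of the 5 values was in wild-type library 3, the library with the fewest snoRNAs. The median mean FPKM of the host was 70.2 for 51 present snoRNAs and 18.7 for 46 snoRNAs under 0.01 FPKM throughout, each snoRNA counted with its host.

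The proteins that bind and build snoRNA particles were expressed in both groups. Fbl, the methyltransferase fibrillarin, had 21.2 and 21.9 FPKM in the knockout libraries and 22.97, 25.7 and 42.4 FPKM in wild-type libraries. Dkc1, the pseudouridine synthase dyskerin, had 4.73 and 3.51 FPKM in the knockout libraries and 5.52, 5.0 and 8.94 FPKM in wild-type libraries. The highest value of both was in wild-type library 3. The knockout values lay below all wild-type values for 3 of the 8 core proteins (Fbl, Nop58 and Dkc1) and overlapped for 5, against 6.96% of all tested genes below. Of the 4 box C/D core proteins, the 4 H/ACA core proteins and 11 assembly factors tested, 0 passed the limma test and 0 had an unadjusted p under 0.05, which with so few genes is near the shares of 0.0572% and 1.82% over all tested genes. The median log2 fold changes of the 3 lists were -0.16, -0.33 and -0.05. Small Cajal body RNAs guide modification of spliceosomal RNAs. Of the 9 whose symbols begin with Scarna, 1 was tested and did not pass. Small Cajal body RNA genes under other symbols were not counted here.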

How the data were processed

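Expression in peritoneal macrophages was given as FPKM per gene, which the authors calculated, per the labels' protocols, with Cufflinks, as part of the Whole Transcriptome Analysis Plugin 4.2-r7 (Torrent Suite 4.4), after alignment to mm10 with TopHat2 and then Bowtie2. Messenger RNA was purified by its poly(A) tail, starting from 1 µg total RNA, and libraries were made with the Ion Total RNA-seq Kit v2. Read depth is unknown, since the deposited table of 38757 rows gives no counts, and no interval or floor from counts could be given. A further 17 deposited columns of derived values were not used.

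The values of wild-type library 3 followed another sort of the gene names than the rest of the table, so that 2144 rows held another gene's value. They were put back in order (Pearson's r across 722 expressed displaced genes with the mean of the other libraries was 0.171 as deposited and 0.916 after reordering). None of the snoRNA rows was displaced (0 of 113), but those of Rpl13a and some core proteins were. The 27 rows with a number as name were left out, and rows of the same symbol were summed. Symbols differing only in case were kept apart, and 9 upper-case rows are no members here.

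The fit of knockout against wild-type used log2(FPKM + 1) values in limma (3.58.1; R 4.3.3) with a mean-variance trend, over the 12228 genes with FPKM of at least 1 in at least 2 libraries, all 5 libraries in the fit and adjustment over all tested genes at 0.05. All fold changes are on that log2 scale of the deposited FPKM with a pseudocount of 1, and understate the change of low genes. No fold is given where a group is listed at 0 throughout. The fit was also run on simulated data with normal spread, in which only genes with higher mean values were changed. Rows listed at 0 throughout a group were not copied there, so nothing about such snoRNAs is read from it. Named snoRNAs were those past the threshold, above 0 in all libraries or without overlap between the groups. The 5 highest by mean FPKM and those sharing a number with any of these were also named. The Rpl13a snoRNAs, some linked to precursor processing, and others with values in most libraries were added as context after their values were seen. The members and lists were chosen with earlier results of these data known. Some host genes and sequences are not reported here.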

Additional observations from a re-analysis of the deposited data

How the results depend on the processing

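The counts of snoRNAs listed at 0 stayed within 1.5 times under every alternative run. The call counts did not. Of all genes, 3 were called higher with a pseudocount of 0.1, 13 higher and 0 lower without a filter, 1 higher and 1 lower with a filter at 5 FPKM, 2 higher and 1 lower with wild-type library 3 in the order as deposited, and 12 higher and 10 lower with library weights. Leaving out each library gave 0 to 6 higher and 0 to 6 lower, the 0 each time a knockout library was left out, which leaves a lone library assumed to vary like the wild-type group. Of snoRNAs, 2 were called lower with a pseudocount of 0.1 and with equal sums, 0 without a filter, 4 with library weights (Snord35a, Snora62, Snord8 and Snora34), and 0 to 3 lower and 0 to 1 higher when a library was left out. With library weights the log2 fold changes of Snora28 (-0.36) and Snora73b (-0.0123) reversed and the median of the tested snoRNAs was -0.39. Leaving out each library, that of Snord22 ranged from -1.38 to 2.59 and reversed without knockout library 2 and without wild-type library 1 (-0.09), and that of Snord16a ranged from -4.90 to 1.16 and reversed without knockout library 2. The causes were not tested. The median of all genes was 0.11 as reported and -0.00246 with median-of-ratios scaling. With the replicate number as a block, 3 genes were called higher, 1 lower and 0 snoRNAs lower (Snord35a, adjusted p = 0.0703). The labels do not say that equal numbers share a mouse or day, and the deviations of same-numbered libraries correlated at -0.0412 and -0.00324. Leaving out symbols that differ only in case, dropping the trend and the limit of 0.01 FPKM were chosen after seeing the data.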
